A study of Mus musculus with 9 samples.

Results

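The uninduced livers were the 3 control livers of a study of 9 mouse livers, and they were chosen by their labels alone. Each came from a C57BL/6J mouse aged 4 weeks that carried the allele R26-M2-rtTA together with the allele Col-TetOP-Mycl-ires-mCherry, and none was given doxycycline. The M2-rtTA protein is a transactivator that binds the tetracycline operator when doxycycline is present, and it is expressed from the Rosa26 locus, which is active in most cell types. All 3 livers therefore carried the inducible Mycl transgene with its mCherry reporter, and they are not livers of wild-type mice. The other 6 livers of the study were induced ones and are not described here. RNA of the liver was sequenced with directional libraries. The labels do not give the sex of the mice, and they number the livers 1 to 3 without saying more about how they were sampled. No comparison between groups was made, so no p-value is given, and every spread is the SD over 3 livers.

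The liver makes most of the proteins of blood plasma and secretes them through the endoplasmic reticulum of hepatocytes. The same cells run the urea cycle, make and store glucose, make and burn fatty acids, form bile acids, and oxidise drugs with cytochrome P450 enzymes. Hepatocytes share the tissue with sinusoidal endothelial cells, with Kupffer cells, which are its resident macrophages, with stellate cells, which store vitamin A, and with the cholangiocytes of the bile ducts. CG dinucleotides are sparse in most of the mammalian genome and dense in CpG islands, which mark the promoters of most widely expressed genes, whereas many promoters of tissue-specific genes lack an island.

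The libraries held 20079232, 18086273 and 14043323 counted reads in livers 1, 2 and 3. Levels are given in counts per 1e+06 reads (CPM), the share of a liver's reads that fell on a gene, and, where genes are compared with each other, in transcripts per 1e+06 (TPM), which divides by transcript length before scaling to the same total. Of 21703 rows in the table, 15473 had a read in at least 1 of these livers and 6230 had none. On average 11546 genes reached 1 CPM, 7495 reached 10 CPM, 1443 reached 100 CPM and 126 reached 1000 CPM.

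Alb, which encodes serum albumin and marks hepatocytes, was the most read gene of every liver, so the livers carried the transcript that their label calls for. It took 82203, 90030 and 80274 CPM in livers 1, 2 and 3, or 84169 ± 5167 CPM (SD, n = 3). Liver 2 was highest and the other two lay close together. By length, the Alb transcript stood at 94596 ± 6328 TPM (SD, n = 3), 4.99-fold above the second gene, Trf, which encodes the iron carrier transferrin. In reads the same ratio was 3.95-fold, with 21737, 21573 and 20659 CPM for Trf.

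The promoters at the head of the ranking were poor in CG dinucleotides. The 4 that follow are those of the 3 most read genes with an entry in the RefSeq table of promoters and that of Eef1a1, which encodes the factor that brings tRNAs to the ribosome and was the most read gene of the protein synthesis lists. They are shown 5′ to 3′ on the strand of the gene, for GRCm38.p6, from 250 bases before the start to 50 after it, with each CG in capitals.
Alb, serum albumin, chr5:90460620-90460919, plus strand: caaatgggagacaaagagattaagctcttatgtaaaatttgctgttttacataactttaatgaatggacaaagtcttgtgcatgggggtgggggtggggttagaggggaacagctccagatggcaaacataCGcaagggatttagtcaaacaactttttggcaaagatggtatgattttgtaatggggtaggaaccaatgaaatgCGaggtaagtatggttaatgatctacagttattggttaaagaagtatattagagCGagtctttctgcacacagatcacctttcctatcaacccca
Apob, apolipoprotein B, chr12:7977427-7977726, plus strand: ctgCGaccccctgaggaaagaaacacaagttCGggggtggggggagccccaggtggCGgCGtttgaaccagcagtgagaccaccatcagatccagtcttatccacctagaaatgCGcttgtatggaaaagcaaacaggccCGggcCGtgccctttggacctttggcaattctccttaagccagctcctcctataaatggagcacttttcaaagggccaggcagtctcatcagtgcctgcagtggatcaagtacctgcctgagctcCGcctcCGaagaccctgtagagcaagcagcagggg
Serpina1e, an alpha-1-antitrypsin gene, chr12:103956848-103957147, minus strand: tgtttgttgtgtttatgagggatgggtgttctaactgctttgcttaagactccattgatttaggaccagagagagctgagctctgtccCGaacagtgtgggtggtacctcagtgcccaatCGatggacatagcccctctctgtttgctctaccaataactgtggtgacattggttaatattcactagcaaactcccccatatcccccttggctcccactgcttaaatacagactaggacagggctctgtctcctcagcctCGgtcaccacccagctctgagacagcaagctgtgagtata
Eef1a1, chr9:78481675-78481974, minus strand: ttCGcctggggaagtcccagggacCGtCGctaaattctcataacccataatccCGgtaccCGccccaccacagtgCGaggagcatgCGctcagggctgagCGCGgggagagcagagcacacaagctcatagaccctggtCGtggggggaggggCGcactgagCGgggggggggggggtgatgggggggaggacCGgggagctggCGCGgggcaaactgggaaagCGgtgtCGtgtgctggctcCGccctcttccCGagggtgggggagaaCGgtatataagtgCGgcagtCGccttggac

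The windows of Alb and Serpina1e hold 3 CG dinucleotides each, that of Apob holds 9 and that of Eef1a1 holds 22. Among the 50 most read genes, 32 matched a promoter, and their median was 4, with quartiles of 3 and 9. The median was 12 over 348 promoters of genes ranked 51 to 500 and 23 over 3630 promoters of genes ranked 501 to 5000. Genes with a mean under 1 CPM returned to a median of 4, and over all 16488 matched promoters it was 14. By list, secreted proteins had a median of 4 over 139 promoters, metabolism 11 over 467, other cell types 4 over 140 and protein synthesis 23 over 145. The most read genes and the genes that were scarcely read thus shared a low CG count, and those between them had more. The Serpina1 genes are close copies, so their promoters are not independent of each other.

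The reads were concentrated on few genes. The 10 most read genes held 19.7% of all reads, the 100 most read held 42.6%, and 185 genes held 50%. By TPM, 96 genes held 50% of the total. In single livers the 10 most read genes held between 19.1% and 20.4%, and 19 of the 20 genes with the highest mean were among the first 20 of every liver. Of the 100 most read genes, 48 were in a list of secreted proteins, 33 in a list of metabolism, 5 were mitochondrially encoded, 3 belonged to protein synthesis and 11 were in no list. None was in a list of another cell type.

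**Figure D1:**
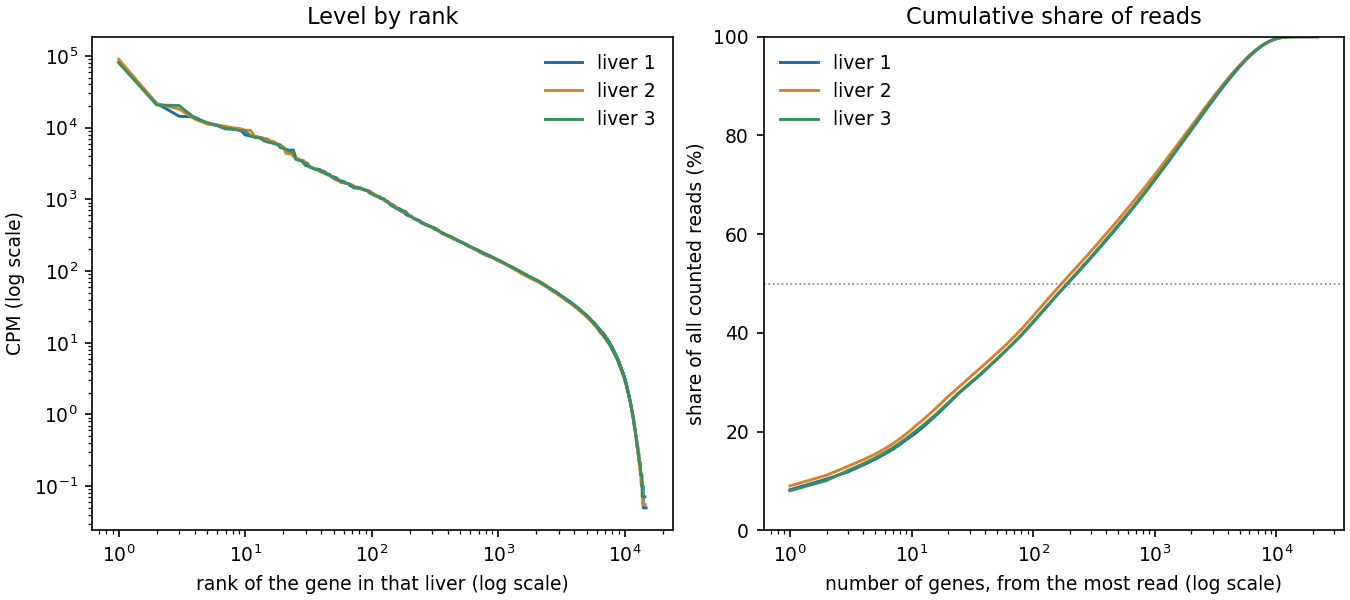
The left panel plots the CPM of each gene against its rank, both on log scales, and the right panel plots the share of reads against the number of genes counted from the most read, with a line for each liver. The 3 lines nearly coincide, and 50% of the reads, the dotted line, is reached at 193, 172 and 190 genes in livers 1, 2 and 3.

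The lists of secreted proteins, 179 genes, took 33.2%, 34.4% and 33.4% of the reads in livers 1, 2 and 3, or 33.7% ± 0.637 (SD, n = 3), and 39.4% ± 0.722 of the TPM. Of the 20 most read genes 17 were secreted products, and of the 20 highest by TPM 16 were. The largest list was that of albumin and plasma carriers, at 147566, 153910 and 142804 CPM in sum. Beside Alb and Trf it holds Ahsg, which encodes fetuin-A, an inhibitor of mineral deposition, with 9496, 9908 and 9138 CPM. Gc was the steadiest of these, at 6299, 6487 and 6279 CPM, a coefficient of variation (CV, the SD divided by the mean) of 1.80%. Ttr, the carrier of thyroxine and retinol binding protein, had 5209, 5414 and 4573 CPM, and Hpx, which binds free heme, had 4856, 4387 and 4932 CPM. In all of these the 3 livers lay within a narrow range of each other.

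Protease inhibitors came next, with 56899, 59070 and 58922 CPM in sum. Serpina3k, a member of the antichymotrypsin family, had 14439, 13169 and 13573 CPM. Serpina1e had 11426, 10882 and 10811 CPM and ranked 5 by TPM as well as by reads. Mice carry several near-identical Serpina1 and Serpina3 genes, so the split of reads among copies is uncertain. Pzp had 7926, 9193 and 8998 CPM and Mug1 had 6018, 7365 and 7677 CPM, so both were lowest in liver 1.

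The apolipoproteins, which coat the lipid particles of plasma, summed to 44716, 46725 and 47933 CPM. Apob, the protein of very low density particles, ranked 3 by reads at 14009, 18134 and 20338 CPM. Its transcript is long, and by TPM it ranked 49, at 2879 ± 594 TPM (SD, n = 3). The short transcripts moved the other way in that ranking, with Apoe ranked 3 at 16681 ± 454 TPM, Apoa1 ranked 7 at 15089 ± 1123 TPM and Apoa2 ranked 8 at 14788 ± 676 TPM. Apoa2 ranked 28 by reads.

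Genes of coagulation, fibrinolysis and adhesion summed to 39373, 40228 and 41492 CPM, and 32 of their 33 members reached 10 CPM. Fga, Fgb and Fgg, the 3 chains of fibrinogen, the protein of the clot, ranked 14, 19 and 23 by reads. Per length, Fga at 6078 TPM and Fgg at 6080 TPM lay together, and Fgb was lower at 3468 TPM. Fga had 6882, 6566 and 7184 CPM, Fgb had 5825, 5525 and 5991 CPM and Fgg had 4856, 4319 and 4723 CPM. Liver 2 was the lowest of the 3 for each chain. Fn1, which encodes fibronectin, varied more, at 2474, 3560 and 3551 CPM, with liver 1 apart below the other two.

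The complement list summed to 24138, 26789 and 27846 CPM, lowest in liver 1. C3, the central component that all pathways cleave, had 9587, 11216 and 11740 CPM. C4b had 1776, 2215 and 2266 CPM, and Hc, which encodes component C5, had 1420, 1686 and 1786 CPM. In each of these 3 genes liver 1 was lowest and liver 3 highest.

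Acute phase proteins, which the liver makes in inflammation, took a small share, 2144, 2111 and 2229 CPM in sum. Orm1, encoding orosomucoid, was the most read of the list at 513, 480 and 525 CPM. Crp, the C-reactive protein, had 309, 288 and 311 CPM, in a species in which it responds weakly to inflammation. Saa1, a serum amyloid A gene, had 72.0, 91.6 and 163 CPM and its close copy Saa2 had 13.4, 13.3 and 35.6 CPM, so both were highest in liver 3. Hamp, which encodes hepcidin, the hormone that limits iron export, had 342, 370 and 213 CPM and was lowest in that liver. Per length, Hamp at 1714 TPM stood above Orm1 at 1493 TPM.

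The major urinary proteins, pheromone carriers of mouse urine, summed to 12625, 10753 and 8813 CPM, a CV of 17.8%. Mup3 had 7552, 7120 and 6153 CPM and ranked 4 by TPM. Mup20, the pheromone darcin, had 2670, 1827 and 1021 CPM, highest in liver 1 and lowest in liver 3. Mup7 had 1371, 944 and 691 CPM, in the same order. The order was not shared by the whole list. Of its 12 members of at least 10 CPM, 7 were highest in liver 1 and 5 in liver 3, among them Mup16 at 78.1, 49.8 and 139 CPM and Mup17 at 82.6, 87.2 and 173 CPM. These counts were 58.3% and 41.7% of the members, against 45.3% and 34.0% of all genes of at least 10 CPM. Mup transcripts are short, and with the median of each class of transcript length removed, the same 12 genes summed to 11534, 11202 and 9203 CPM, a CV of 11.8%. Mup genes are near-identical copies, and reads that match several of them may be missing from these counts. Hormones and growth factors summed to 4053, 4089 and 4279 CPM, and their most read genes were Igfbp4, which binds insulin-like growth factors, at 1299, 1338 and 1360 CPM, and Igf1, the main effector of growth hormone, at 1166, 1306 and 1204 CPM. Igf1 has a long transcript, and per length its 397 TPM lay below the 662 TPM of Igfbp2 and the 591 TPM of Agt, the angiotensin precursor.

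The metabolic lists, 578 genes, took 18.3%, 18.2% and 17.7% of reads, or 18.1% ± 0.326 (SD, n = 3), and 19.5% ± 0.171 of the TPM. Cytochrome P450 families 1 to 3 summed to 22592, 21268 and 22145 CPM, with 31 of 59 members at 10 CPM or more and 10 with no read. Cyp3a11, an oxidase of steroids and drugs, had 4977, 3980 and 5187 CPM, and Cyp2e1, which oxidises ethanol, had 4856, 4355 and 4642 CPM. Conjugating enzymes summed to 12968, 11863 and 11645 CPM, and Mgst1, a membrane-bound glutathione transferase, was the most read at 2584, 2363 and 2252 CPM. Carboxylesterases summed to 7729, 7642 and 7873 CPM, most of it from Ces1c at 2634, 2321 and 2644 CPM and Ces3a at 2141, 2246 and 2242 CPM.

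By library totals, amino acid catabolism was the steadiest of the larger lists in sum, at 16185, 16367 and 16284 CPM, a CV of 0.559%. This depended on the scaling. With TMM, its members of at least 10 CPM had a CV of 2.63% in sum, above the 1.03% of cytochrome P450 families 1 to 3. By library totals, 20 of these 46 amino acid catabolism genes were highest in liver 1 and 20 in liver 2, or 43.5% each. Over all genes of at least 10 CPM the shares were 45.3% and 20.7%. With TMM, 13 of the 46 were highest in liver 1 and 27 in liver 2, against 38.0% and 31.2% of all genes. Among the leading genes of amino acid catabolism were Tdo2, which opens the tryptophan ring, at 1555, 1438 and 1424 CPM, and Hpd, of tyrosine breakdown, at 1443, 1460 and 1371 CPM. Tat, the first enzyme of tyrosine breakdown and a target of glucocorticoids, differed more, at 947, 1162 and 1489 CPM. The urea cycle list summed to 13865, 15236 and 15024 CPM. Cps1, which commits ammonia to urea, was its most read gene at 5753, 7317 and 7296 CPM, with liver 1 below the other two.

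In carbohydrate metabolism, Pck1, the enzyme that commits to glucose synthesis, had 1683, 1632 and 2074 CPM, and G6pc, which releases free glucose, had 405, 511 and 781 CPM. Both were highest in liver 3, as were 4 of the 21 members of at least 10 CPM in the list of gluconeogenesis, glycogen and sugar entry, against 34.0% of all genes. In that list 10 of the 21 members, or 47.6%, were highest in liver 2, against 20.7% of all genes. With TMM it was 12 of the 21, or 57.1%, against 31.2% of all genes. The list summed to 9814, 10276 and 10494 CPM and that of glycolysis to 1890, 1876 and 1731 CPM. Per length, the first held 0.99% and the second 0.23% of the TPM.

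In sum, fatty acid and cholesterol synthesis had the widest spread of the metabolic lists, with 14221, 17598 and 12513 CPM, a CV of 17.5%. The median CV of its members of at least 10 CPM was 8.72%, so most members did not share that spread. The most read member, Scd1, had a CV of 30.5% and weighed heavily in the sum. The sum without Scd1 was not computed. Scd1, the desaturase that makes oleate, ranked 11 by reads, at 7297, 9759 and 5230 CPM. Fasn, the fatty acid synthase, had 427, 661 and 529 CPM, Thrsp, which promotes lipid synthesis, had 52.6, 89.0 and 52.3 CPM, and Pklr, the pyruvate kinase of the liver, had 152, 196 and 135 CPM. Each of these 4 genes was highest in liver 2. Sqle, of cholesterol synthesis, ran in another order, at 13.1, 9.40 and 18.3 CPM. Fatty acid oxidation and ketogenesis summed to 15460, 14360 and 14158 CPM, and the most read was Scp2, a peroxisomal thiolase and sterol carrier, at 3182, 3263 and 3109 CPM.

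The list of bile acid synthesis and transport summed to 7685, 7531 and 7942 CPM. Cyp7a1, the rate-limiting enzyme of bile acid synthesis, had 60.8, 41.3 and 81.5 CPM, and the exporter Abcb11 had 1019, 1076 and 1187 CPM. Per length their levels were 33.6 ± 11.5 TPM and 498 ± 50.5 TPM (SD, n = 3). Antioxidant enzymes summed to 9335, 8620 and 8406 CPM, and the most read was Cat, the catalase of peroxisomes, at 3575, 3711 and 3451 CPM. Per length, the glutathione peroxidase Gpx1 at 3354 TPM stood above Cat at 3130 TPM. Ferritin light chain, Ftl1, had 1344, 1305 and 1192 CPM.

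**Figure D2:**
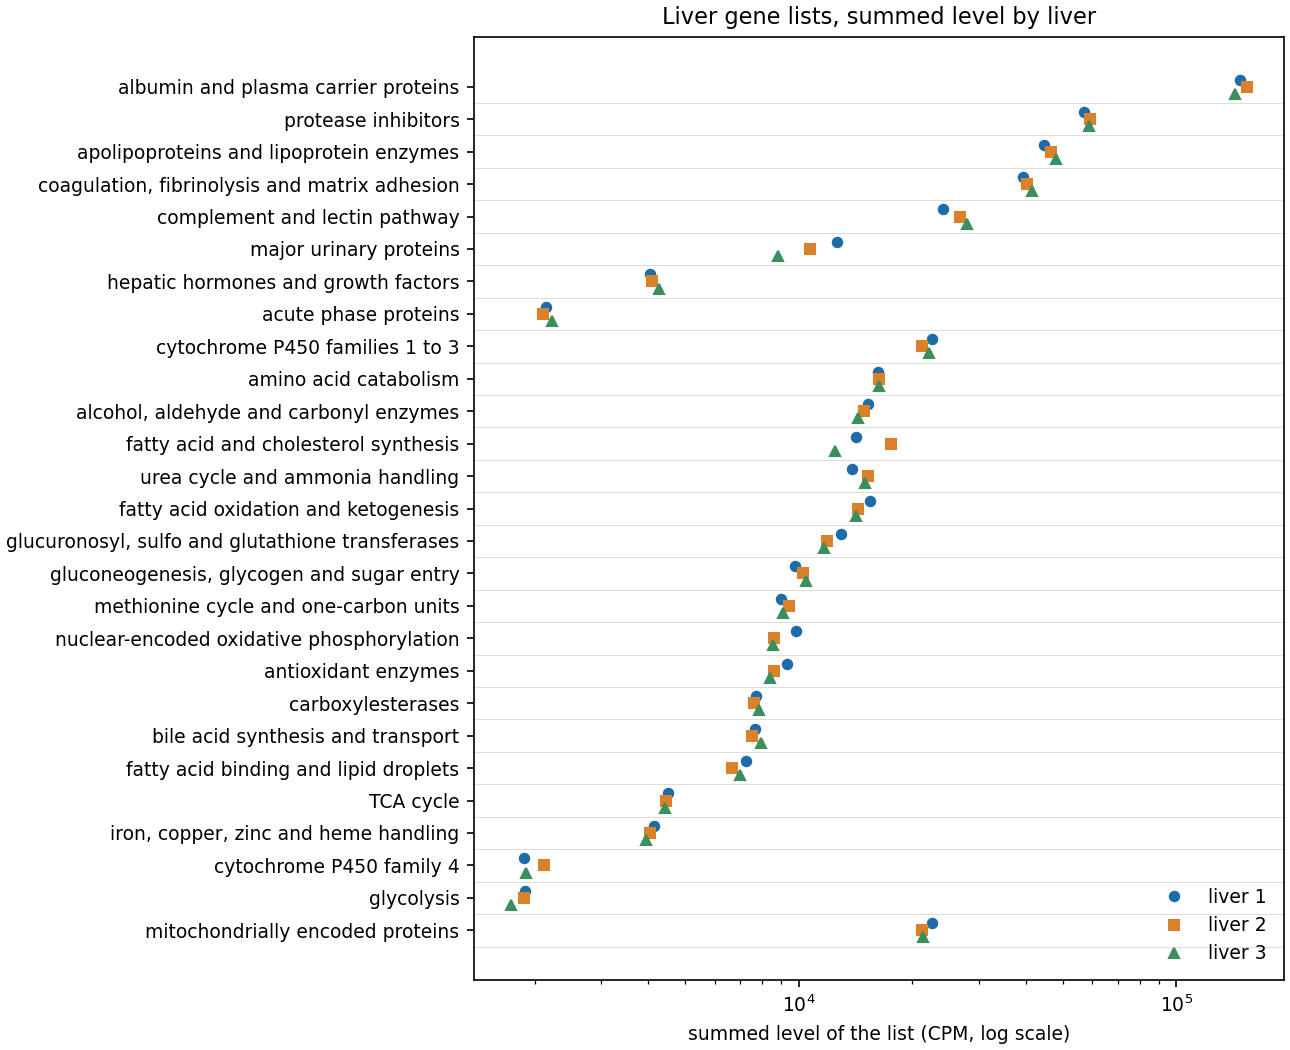
Each row is a gene list, the horizontal axis is the summed level of its members in CPM on a log scale, and each point is a liver. The 8 upper rows are secreted proteins, the last is the mitochondrial genome and those between are metabolism. The points of most rows nearly touch. Major urinary proteins and fatty acid and cholesterol synthesis are the rows with CVs of 17.8% and 17.5%. Scd1 is the most read gene of the latter row and weighs heavily in its sum.

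The mitochondrial genome encodes 13 subunits of the respiratory chain, and these took 2.26%, 2.12% and 2.13% of reads. mt-Co1, a subunit of cytochrome oxidase, ranked 9 by reads, with 9490, 9179 and 9572 CPM, and mt-Cytb had 3896, 3799 and 3620 CPM. Only 7 of the 13 reached 1 CPM, and mt-Atp8 and mt-Co3 had no read. mt-Co2 had 1 read in liver 1 and none in the others. The genes of this genome are transcribed together, so these low values sit beside well-read neighbours on the same precursor. Mitochondrial genes have nuclear copies, and whether reads that match both were left uncounted was not tested, so the share of this list is uncertain. The nuclear subunits of the respiratory chain summed to 9872, 8619 and 8552 CPM, and the most read was Atp5b of ATP synthase at 1397, 1307 and 1306 CPM.

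Lists of protein synthesis took 2.67%, 2.38% and 2.55% of reads. Cytosolic ribosomal proteins summed to 8845, 7105 and 7424 CPM, and 82 of 86 reached 10 CPM. Eef1a1 had 2744, 2062 and 2273 CPM. Chaperones and secretory machinery of the endoplasmic reticulum summed to 8612, 8497 and 9243 CPM, and the most read was P4hb, which forms disulfide bonds, at 1412, 1381 and 1348 CPM. Hsp90b1, a chaperone of the same compartment, had 771, 798 and 1028 CPM and was highest in liver 3.

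Lists of regulators, 67 genes, took 0.526% ± 0.008 of reads (SD, n = 3). Hnf4a, a nuclear receptor that drives hepatocyte genes, had 720, 655 and 713 CPM, and Cebpa, a leucine zipper factor of hepatocytes, had 405, 412 and 381 CPM. Rxra, the partner of many nuclear receptors, had 467, 509 and 513 CPM, and Ppara, the fatty acid sensor, had 217, 219 and 226 CPM. Dbp, an output of the circadian clock, had 27.0, 43.4 and 21.4 CPM, and Nr1d1, a repressor within the clock, had 110, 130 and 83.9 CPM, so both were highest in liver 2 and lowest in liver 3.

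Since the livers carried an inducible Mycl gene, the MYC family was read out in each. Mycl had 9.86, 10.1 and 10.3 CPM, or 10.1 ± 0.200 CPM (SD, n = 3), and reads of the transgene and of the resident gene cannot be told apart in it. The IRES-mCherry reporter had 20, 5 and 4 reads, which is 0.996, 0.276 and 0.285 CPM, so reporter reads were found in every liver without doxycycline and liver 1 had the most. Myc had 3.69, 6.14 and 11.3 CPM and Mycn had 1.59, 0.995 and 1.64 CPM. Max, the partner that all 3 need to bind DNA, had 11.3, 11.3 and 12.3 CPM. Mycl and Max differed little between livers, whereas Myc in liver 3 stood above both others.

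Pericentral genes, which hepatocytes near the central vein express, summed to 9597, 8851 and 9387 CPM, and periportal genes to 14977, 17137 and 17057 CPM. Glul, the glutamine synthetase of the innermost pericentral layer, had 1000.1, 980.5 and 1021 CPM. The periportal Cyp2f2 had 1845, 2111 and 1915 CPM. The Y-linked Ddx3y was read at 105, 87.1 and 106 CPM and Eif2s3y at 39.1, 34.2 and 35.3 CPM, so each of the 3 libraries held Y-linked RNA. Male-biased liver genes summed to 29694, 27321 and 24996 CPM and female-biased ones to 214, 105 and 138 CPM, of which Cyp2c40 made up 196, 79.3 and 114 CPM. The male-biased list includes Serpina1e, Mup3 and Mup20, whose values are given above and which have close copies. With the median of each length class removed, its members of at least 10 CPM summed to 28046, 28202 and 25623 CPM.

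Fetal liver genes were little read. Afp, the fetal counterpart of albumin, which was looked up after its values were seen, had 1.74, 1.71 and 1.99 CPM, and the fetal list summed to 46.6, 41.2 and 45.4 CPM. Cell cycle genes summed to 195, 224 and 161 CPM, of which Ccnd1, the cyclin of entry into the cycle, had 56.6, 53.2 and 48.9 CPM. Mki67, which marks cycling cells, had 10.4, 13.9 and 5.98 CPM, highest in liver 2 and lowest in liver 3.

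Markers of cell types other than hepatocytes, 187 genes, took 0.323%, 0.374% and 0.365% of reads, or 0.354% ± 0.027 (SD, n = 3). In bulk tissue, fewer cells of a type and less RNA per cell cannot be told apart, so these are shares of RNA and not of cells. Lists of stellate cells and fibroblasts summed to 1132, 1314 and 1296 CPM, those of endothelium to 931, 1092 and 1040 CPM, and those of Kupffer cells and macrophages to 930, 990 and 978 CPM. Each of these 3 lists was lowest in liver 1.

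Clec4f, a lectin that within the liver marks Kupffer cells, had 104, 98.9 and 102 CPM. Stab2, a scavenger receptor of sinusoidal endothelium, had 83.0, 124 and 110 CPM. Lrat, the enzyme with which stellate cells esterify retinol, had 30.1, 34.2 and 27.6 CPM. The defining genes of these 3 resident cell types were thus read in every liver. The most read gene of the Kupffer list was Slc40a1, the iron exporter, which hepatocytes also express, at 271, 270 and 245 CPM, so its sum is not a measure of macrophages alone.

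Cholangiocytes summed to 71.6, 65.1 and 68.1 CPM, and Krt19, a keratin of the ducts, had 1.74, 1.16 and 1.71 CPM. Of the 13 members of this list 2 reached 10 CPM, so its sum rests on few genes. Among its markers, Spp1 had 35.0, 32.3 and 34.7 CPM, whereas Krt7 and Epcam had means of 0.719 and 1.21 CPM. Genes that present antigen on class II molecules ran from 134 CPM in liver 1 to 158 in liver 2 and 221 in liver 3, and H2-Aa, a class II chain, had 29.7, 26.5 and 51.6 CPM. Red cell genes summed to 248, 288 and 233 CPM, with Alas2, the heme enzyme of red cell precursors, at 130, 144 and 108 CPM. Hbb-bs, a globin chain, had 54.3, 65.7 and 55.3 CPM. Globin genes have close copies, which makes their own counts uncertain.

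Leukocytes of the blood were scarcely read. Neutrophil and monocyte genes summed to 9.36, 10.01 and 11.3 CPM, T and NK cell genes to 6.92, 9.62 and 9.40 CPM, and B cell genes to 6.13, 10.4 and 7.33 CPM. Ly6g, which defines mouse neutrophils, had 0 reads in all 3 livers, and a count of 0 allows up to 0.149, 0.166 and 0.214 CPM, by counting error alone. Cd3e, of the T cell receptor complex, had 7, 11 and 6 reads and Cd79a, of the B cell receptor complex, had 9, 16 and 8. The constant regions of the T cell receptor and of immunoglobulin were not analysed here.

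Genes of tissues outside the liver were low, with an uneven part. Skeletal and cardiac muscle summed to 1.05, 0.553 and 1.28 CPM, and Acta1, skeletal actin, had 2, 0 and 4 reads. Pancreatic acinar genes summed to 26.4, 70.0 and 27.3 CPM. Cela1, an elastase, held most of that sum in livers 1 and 3 at 25.4 and 23.6 CPM, with 28.9 CPM in liver 2. The digestive enzymes that define acinar cells stood apart in liver 2. Prss2, a trypsinogen, had 0, 54 and 3 reads in livers 1, 2 and 3, Ctrb1, chymotrypsinogen, had 1, 168 and 10, Pnlip, pancreatic lipase, had 2, 121 and 11, and Cel, the bile salt activated lipase, had 0, 110 and 3. Their source was not tested. The whole list took 0.00413% of the reads on average, and 0.00269% without liver 2.

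**Figure D3:**
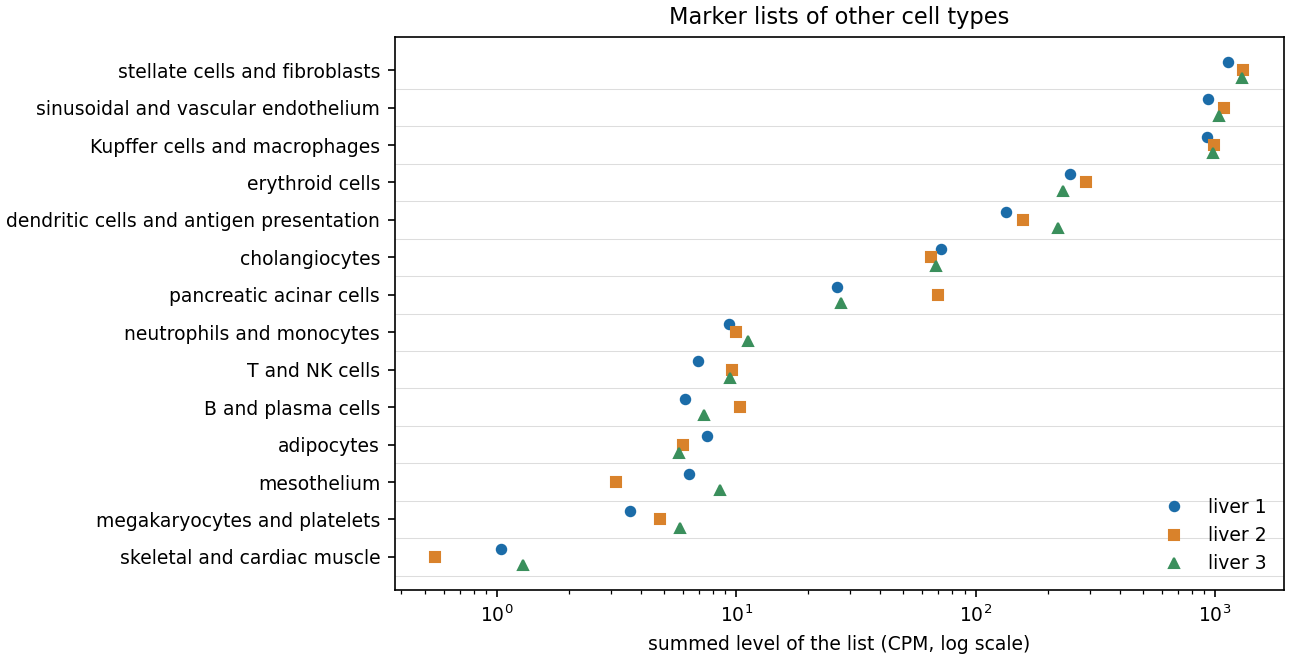
Each row is a marker list of a cell type other than hepatocytes, the horizontal axis is the summed level in CPM on a log scale, and each point is a liver. Stellate, endothelial and Kupffer lists stand near 1000 CPM in every liver, leukocyte lists near 10 CPM, and in the acinar row liver 2, at 70.0 CPM, lies apart from the other two.

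The 3 livers were close to each other. For pairs of livers, Pearson's r of log2(CPM + 1) over 11546 genes was 0.992 to 0.993, a description across genes that share their libraries. Of the 7495 genes with a mean of at least 10 CPM, 98.4% to 98.9% lay within 1.5-fold. The counts of each pair still differed by more than sampling noise, with a chi-square of 10.5 to 17.2 per degree of freedom, so no library was a repeat of another. Over the 7495 genes of at least 10 CPM, the median CV was 7.07%, 2234 genes (29.8%) had a CV under 5% and 264 genes (3.52%) had a CV of at least 20%. Between the 2 livers left without liver 3, 433 genes had a CV of at least 20%, and without liver 1, 3876 genes had one under 5%. The common biological coefficient of variation, the spread beyond counting error that edgeR fits over all these genes, was 0.0955.

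Counting error made up most of the spread of the weakly read genes and a smaller part of that of the others. Between 1 and 10 CPM the median CV was 13.9%, of which counting error alone gives 12.03%. Between 10 and 100 CPM it was 7.33% against 4.57% from counting, between 100 and 1000 CPM 6.24% against 1.85%, and at 1000 CPM or more 6.53% against 0.597%.

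**Figure D4:**
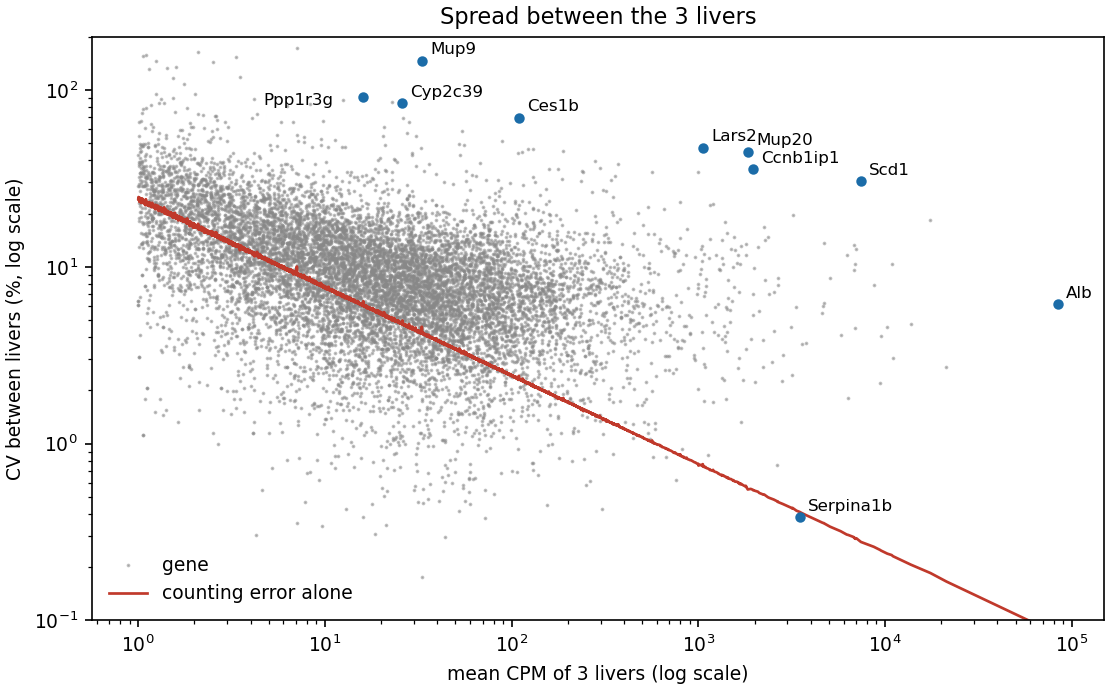
Each grey point is a gene with a mean of at least 1 CPM, placed by its mean CPM and its CV between the 3 livers, both on log scales, and the line is the CV that counting error alone gives. The cloud follows the line at low levels and flattens above it, and the labelled Mup9, Ces1b, Lars2, Mup20 and Scd1 stand above the cloud at their levels.

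The genes with the least spread were Krtcap2, a subunit of the oligosaccharide transferase, with 33.4, 33.3 and 33.3 CPM, and Nup153, of the nuclear pore, with 43.9, 44.1 and 44.1 CPM. They were the lowest of 7495 CVs and lay under their own counting errors of 4.20% and 3.65%, so their order among steady genes is not resolved at this depth. Serpina1b, at 3472, 3499 and 3484 CPM, had a CV of 0.385%, near its counting error of 0.411%.

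At the other end, 15 genes had a CV of 50% or more, as the plot of these genes shows. Liver 3 was highest in 12 of them, against 34.0% of all genes of at least 10 CPM. The 12 include Gm8909, Gpat3 and Cyp2c39, in which another liver lay close to liver 3. Mup9 had 5.33, 4.81 and 88.9 CPM, Ppp1r3g, which targets a phosphatase to glycogen, had 4.73, 10.7 and 32.7 CPM, and Ces1b had 69.4, 61.4 and 197 CPM. Ddit4, an inhibitor of mTORC1 induced by stress and glucocorticoids, had 12.4, 19.1 and 46.7 CPM, and Btg2, an early response gene, had 19.02, 22.8 and 49.8 CPM. Slc10a2, a bile salt importer known best in ileum, had 18.9, 16.1 and 49.6 CPM. In each of these 6 genes liver 3 stood above both others.

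Others of the 15 were set by a low liver. Gm10260 and Gm8909 had 20.8 and 31.6 CPM in liver 1 and 16.4 and 36.5 CPM in liver 3, but 0.0553 and 0.553 CPM in liver 2. Cwc22, a splicing factor, had 38.4, 9.57 and 35.0 CPM, and Gpat3, of triglyceride synthesis, had 13.9, 4.59 and 15.4 CPM. Cyp2c39 was low in another liver, with 0.697 CPM in liver 1 against 38.0 and 39.0 CPM, and Cyp2c69 was high in liver 1, at 89.5 CPM against 29.2 and 43.3. The Mup, Ces1 and Cyp2c genes have close copies. Over the 264 genes with a CV of at least 20%, liver 1 was the farthest from the median of the 3 in 112, liver 2 in 69 and liver 3 in 83.

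**Figure D5:**
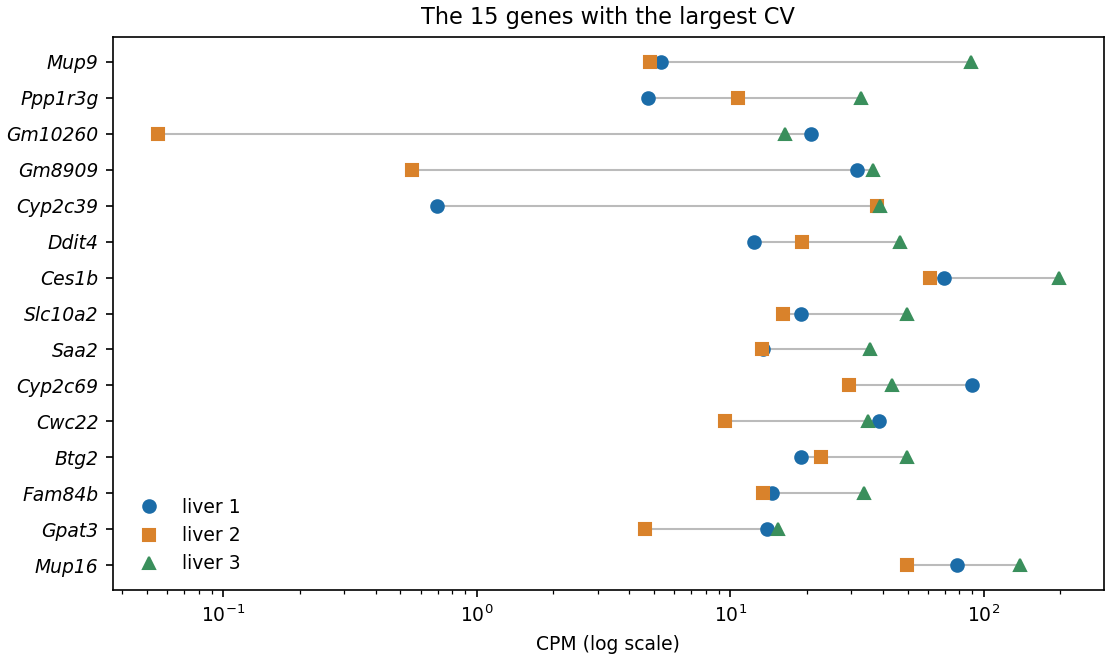
Each row is a gene among the 15 with the largest CV over genes of at least 10 CPM, and each point is a liver, by CPM on a log scale. Mup9, Ppp1r3g, Ddit4, Ces1b and Slc10a2 have liver 3 at the right end, and Gm10260, Gm8909 and Cwc22 have liver 2 at the left end.

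Some lists moved together between livers. Immediate early and heat shock genes summed to 443, 524 and 681 CPM, and 11 of their 13 members of at least 10 CPM were highest in liver 3. Over all genes of at least 10 CPM, liver 3 was highest in 34.0%. Junb, a subunit of the AP-1 factor, had 26.1, 53.4 and 77.6 CPM and Dusp1, a phosphatase of MAP kinases, had 47.6, 81.2 and 90.6 CPM. The list of genes that answer to fasting and insulin followed no common order, with 4 members highest in liver 1, 6 in liver 2 and 6 in liver 3. Igfbp1, which falls with insulin, had 136, 144 and 288 CPM and Irs2, an insulin receptor substrate, had 40.9, 51.5 and 79.4 CPM, and both were highest in liver 3, as G6pc and Tat were. The count of 11 in 13 was the same with TMM, with DESeq2 size factors and after removal of the length trend described next.

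Ribosomal proteins were highest in liver 1 for 81 of 82 members, and nuclear subunits of the respiratory chain for 70 of 70, against 45.3% of all genes. Fatty acid oxidation genes were highest in that liver for 28 of 30. Transcript length moved with these counts. Among genes with transcripts under 800 bases, liver 1 stood above the mean of the others by a median of 0.27 on the log2 scale, and among those of 6000 bases or more it stood at -0.05, whereas liver 3 went from -0.13 to 0.10. With the median of each length class removed, the counts became 51 of 82 for ribosomal proteins, 41 of 70 for the respiratory chain and 20 of 30 for fatty acid oxidation, against 36.9% of all genes. Each median was taken over all genes of its class, members of these lists included. The class under 800 bases held 172 genes, so part of the fall may be built in, which was not tested. The length trend also touches the long transcripts of Apob, C3, Cps1 and Fn1, which were lowest in liver 1, and its part in those values was not tested.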

How the data were processed

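RNA of 9 mouse livers was sequenced, and the 3 uninduced ones were used. The authors deposited whole-number counts of reads per gene, not normalised. The submitters' processing notes name cutadapt 3.0, STAR 2.7.8a, HTSeq 0.11.2, DESeq2 1.30.0 and the mm10 build. For the annotation release and the strand setting of the counting, nothing is given in the sources used here.

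From these counts, CPM was computed by dividing by each library's total over all 21703 rows, which are 21702 Ensembl identifiers and the IRES-mCherry reporter. TPM used the longest basic transcript of GENCODE M21 (GRCm38). A symbol was found for 21588 identifiers. Python 3.11.15 with pandas 2.3.3 was used, and R 4.3.3 with edgeR 4.0.16 for the common dispersion, an intercept fit checked on simulated data, and for TMM. Size factors came from DESeq2 1.42.0. Totals ran from 14043323 to 20079232 counts, which sets the precision of weakly read genes, and CVs used genes with a mean of at least 10 CPM. Intervals and floors cover counting error only, and a floor is 3 counts. No test was made, because no groups were compared.

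Genes were summed over 59 lists, 1360 genes in all, each counted once in the shares. Named genes were the 20 most read and the 20 highest by TPM, up to 4 most read and 2 most variable members of each list, the MYC genes, the reporter, defining markers, and the 15 most and 10 least variable genes. Exceptions were named after their values were seen, among them Afp, Lars2 and acinar, islet and low mitochondrial genes. The livers and lists were chosen with earlier results of these data known. Mup, Serpina1, Serpina3, Cyp2c, Cyp2d, Cyp3a, Cyp4a, Ugt, globin and Saa genes have near-identical copies, so their counts are uncertain. Other denominators, lengths, scalings, filters and leaving out each liver were tried. Values of some named genes are not reported here.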

Additional observations from a re-analysis of the deposited data

How the results depend on the processing

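No paired analysis was possible because no comparison between groups was tested. Leaving out each liver in turn moved the shares of the 5 classes of lists by less than their SD. For a mean of 3 livers this holds whatever the values, so it says nothing about stability. The 10 most read genes held 19.3% to 19.9% of reads when a liver was left out. The share of secreted proteins then ran from 33.3% to 33.9%. The counts of genes at 1 CPM and of genes that hold 50% of reads, the median CV and the biological coefficient of variation moved by less than 1.5-fold. Of the sums of 59 lists, 1 moved by over 1.5-fold, that of acinar genes, from 0.00413% to 0.00269% of reads without liver 2. The 264 genes with a CV of at least 20% became 243, 335 and 433 without livers 1, 2 and 3, the 15 of at least 50% became 20, 21 and 14, and the 2234 under 5% became 3876, 3073 and 2935, each over pairs of livers. Counts of the liver in which a gene was highest were not repeated without a liver. Per length, that share rose from 33.7% to 39.4% with the longest transcript and to 42.9% with all exons merged. It was 34.4% without mitochondrially encoded genes, 27.6% without Alb and 31.0% without genes that have close copies. The share of metabolism, 18.1%, became 19.5%, 18.7%, 18.5%, 19.7% and 17.4% under the same 5 settings in that order. The share of other cell types, 0.354%, became 0.322% and 0.315% per length and 0.386% without Alb. By TPM, 96 genes in place of 185 held 50% of the total, and the first 10 held 23.6% in place of 19.7%. With no filter on low counts the median CV was 11.6% in place of 7.07%. Scaling by TMM or DESeq2 size factors moved none of 324 named genes by more than its SD. The factors lay between 0.977 and 1.02, so a mean of 3 livers could hardly move, and this says nothing about stability. The order of the livers did depend on scaling. With TMM, liver 1 was highest in 38.0% of all genes of at least 10 CPM, in place of 45.3%. Leaving out liver 1, 2 or 3 moved 5, 5 and 9 of the 324 named genes by over 1.5-fold. Adding an islet list, removing the length trend and leaving Alb out of the count of genes that hold 50% of reads were chosen after seeing the data, as was leaving out livers for single lists and CV counts. The first 3 gave 0.355%, a median CV of 6.22% and 263 genes. The median CV without liver 1 was 4.76%. Depth limits genes under about 10 CPM, where counting error is a larger part of the spread than at higher levels.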

Other observations

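Hormone genes of the pancreatic islet were read in the livers, most of all in liver 1. This list of 15 genes was added after the values of Ins2 and Gcg were seen. It summed to 33.1, 4.31 and 14.0 CPM in livers 1, 2 and 3, a mean of 17.2 CPM that became 9.17 CPM without liver 1. Ins2, an insulin gene, had 234, 28 and 78 reads, Ins1, the other insulin gene of the mouse, had 96, 19 and 46, and Gcg, encoding glucagon, had 165, 8 and 26. Iapp, the amylin gene, had 62, 9 and 14 reads. Liver 1 was highest for each of these, whereas the acinar enzymes were highest in liver 2, so the genes of the endocrine and the exocrine pancreas did not follow the same liver. Their source was not tested.

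A search for genes with at least 5 CPM in a liver and a 4-fold range after adding 0.2 CPM, set after seeing the data, found 14 genes. Myom2, a protein of the muscle sarcomere, had 0, 0 and 298 reads, although the muscle list summed to no more than 1.28 CPM in any liver. Cyp46a1, which hydroxylates cholesterol and is known best in brain, had 6, 215 and 178 reads, and thus followed Cyp2c39, with 14, 687 and 548. H2-Q2 had 110, 15 and 83 reads, low in liver 2 as Gm8909 was, with 635, 10 and 513. Snrnp25, of the minor spliceosome, had 170, 28 and 36 reads.

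Of the 100 most read genes, 11 were in no list. Car3, a carbonic anhydrase, had 2422, 2809 and 2754 CPM, Lrp1, an endocytic receptor, had 1820, 2429 and 2509 CPM, and Egfr, the receptor of epidermal growth factor, had 1435, 1810 and 1827 CPM. Ccnb1ip1 had the widest spread of these, at 2659, 1260 and 1984 CPM. Lars2, the leucyl tRNA synthetase of mitochondria, ranked 118 with 501, 1199 and 1469 CPM, and liver 1 lay apart below the other two.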
